A study of Saccharomyces cerevisiae with 14 samples.

Results

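The transcripts of enzymes that build and attach the sugar chains of *Saccharomyces cerevisiae* glycoproteins were followed through a heat stress in 3 strains. The genes were chosen by name and by their step in the pathway, with earlier results of these data known. They comprise 35 of the 5449 *S. cerevisiae* genes named on the array. Of these, 6 act in assembly of the lipid-linked oligosaccharide on the cytosolic face of the endoplasmic reticulum (ER) membrane, 5 in its completion on the lumenal face, 3 in the supply of dolichol phosphate and dolichol-linked sugars, 9 in the oligosaccharyltransferase, 6 are protein *O*-mannosyltransferases and 6 are Golgi mannosyltransferases. Each of the 35 genes has 1 probe set.

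Messenger RNA, purified by its poly(A) tail, was hybridised to 14 Affymetrix GeneChip arrays. The strains were NFRI 3236, labelled heat tolerant, NFRI 3155, labelled heat sensitive, and S288C, the laboratory strain used as the control. Each strain was sampled after 39°C and at 30°C, and the methods describe growth in YPD medium and heating for 30 min, without any added agent or gene deletion. NFRI 3236 and NFRI 3155 had 2 arrays at each temperature and S288C had 3 at each. Each strain stands for a single isolate, so a difference between strains belongs to these isolates.

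N-linked glycans are first built on the lipid dolichol, sugar by sugar, beginning on the cytosolic side of the ER membrane and ending in the lumen. The oligosaccharyltransferase then moves the finished chain onto asparagine residues of proteins entering the ER. *O*-linked chains begin separately, when the Pmt enzymes place a mannose from dolichol-phosphate-mannose on serine or threonine, and both kinds of chain are lengthened by mannosyltransferases of the Golgi. In yeast much of the product ends in the mannoproteins of the cell wall.

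Every value below is a relative signal, which is the signal of the probe set divided by the 75th percentile of all probe sets on the same array. This percentile lay between 95.7 and 438 signal units. All 35 genes were above background on all 14 arrays, where background is the 95th percentile of the probe sets for *Schizosaccharomyces pombe* genes, and 4946 of the 5449 genes met this. The temperature labels were borne out by *HSP26*, a small heat shock protein, which lay between 26.2 and 59.8 on the 39°C arrays and between 0.0582 and 0.182 on the 30°C arrays. The S288C arrays at 30°C stood apart in the spiked poly-A controls, of which 0, 0 and 1 of 12 probe sets exceeded background, whereas 8 to 12 did so on every other array. Its part in the S288C heat changes, in levels against S288C at 30°C and in heat responses against S288C was not tested. On replicate 2 of NFRI 3236 at 39°C the 3′ probe set of *WBP1* was 10.9 times its 5′ probe set, against 1.41 to 5.86 on the other arrays.

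The first question was how the 35 genes responded to 39°C in each strain. More of them fell than rose when arrays were scaled to the 75th percentile. In NFRI 3236, 14 fell and 1 rose. In NFRI 3155, 16 fell and 3 rose. In S288C, 15 fell and 1 rose. A call here is an adjusted p under 0.05 by limma, with Benjamini-Hochberg adjustment over the 5443 genes tested. The share that fell was thus 40% in NFRI 3236, where 23.5% of all genes tested fell, 45.7% in NFRI 3155, where 24.1% fell, and 42.9% in S288C, where 28.2% fell. The shares of all genes that rose were 15.7% in NFRI 3236, 18.1% in NFRI 3155 and 25.2% in S288C. With no percentile shift, 1486 of all 5443 genes tested rose and 121 fell in NFRI 3236. In NFRI 3155 591 rose and 503 fell, and in S288C 1839 rose and 449 fell. Of the 35 genes at this setting, 2 rose and 0 fell in NFRI 3236, 1 rose and 1 fell in NFRI 3155, and 6 rose and 5 fell in S288C. The number that fell was 8 in NFRI 3236 without its replicate 1 at 30°C, and in NFRI 3155 it was 8 without replicate 1 at 39°C or at 30°C and 7 without replicate 2 at 30°C. The scale is relative to each array, and in bulk RNA a lower level in every cell and fewer cells with the RNA cannot be told apart.

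The median log2 change at 39°C over the 35 genes was -0.45 in NFRI 3236, -0.51 in NFRI 3155 and -0.38 in S288C, and with no percentile shift it was 0.39, -0.29 and 0.22 in the same strains. All genes tested had medians of -0.10, -0.08 and -0.04 with the shift and 0.74, 0.13 and 0.56 without it. The median of the 35 genes minus that of all genes was -0.35 in NFRI 3236, -0.43 in NFRI 3155 and -0.34 in S288C, and a shift of whole arrays cannot alter this difference. With quantile normalization it was -0.30, -0.39 and -0.25 in the same strains, and with 16 added to each signal -0.24, -0.40 and -0.21. The arrays at 39°C all lay below those at 30°C for 23 genes in NFRI 3236, 25 in NFRI 3155 and 19 in S288C, which 39.4%, 39.2% and 33.9% of all genes tested did in these strains. They all lay above for 3, 7 and 3 genes, against 30.8%, 33.7% and 30.4% of all genes tested.

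Of the 35 genes, 12 fell in all 3 strains, as did 13.7% of all genes tested. They were *ALG3*, *ALG9*, *ALG8*, *ALG5*, *OST1*, *OST6*, *OST5*, *PMT4*, *PMT5*, *MNN9*, *MNN1* and *KRE2*, and they include members of 5 of the 6 steps. None of the 35 rose in all 3 strains by limma at an adjusted p under 0.05 (1, *ALG13*, at an unadjusted p under 0.05, and 0 by the methods' t-test), which 9.06% of all genes tested did. Another 14 genes passed the test in no strain, as did 30.1% of all genes. With no percentile shift none of the 12 kept its call in all 3 strains, although their log2 changes stayed below 0 for 11 genes in NFRI 3236 (*MNN9* was at 0.20), 12 in NFRI 3155 and 12 in S288C. Quantile normalization kept the call in all 3 strains for 7 of the 12, namely *ALG3*, *ALG5*, *OST6*, *OST5*, *PMT4*, *PMT5* and *MNN1*. The number that fell in all 3 strains was 6 without either 30°C array of NFRI 3155 (10.8% and 11.5% of all genes), and 8 with the replicate block (12.3%), without replicate 1 of NFRI 3236 at 30°C (10.3%) or without replicate 1 of NFRI 3155 at 39°C (12.7%).

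**Figure D1:**
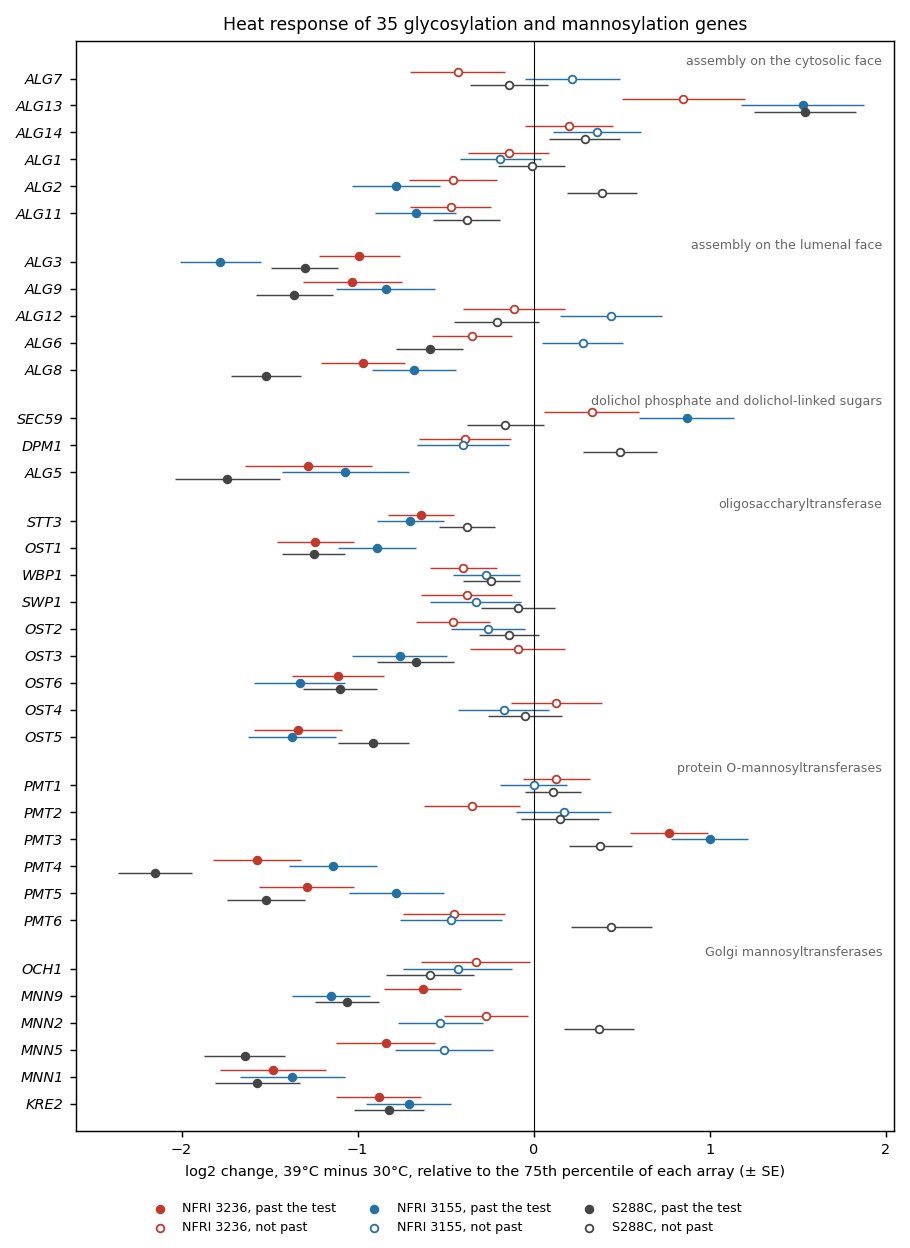
Log2 change at 39°C minus 30°C for the 35 genes, ordered by step from the cytosolic face of the ER to the Golgi. Points are the fitted change in NFRI 3236, NFRI 3155 and S288C, bars are ± 1 SE, and filled points passed the test. Filled points lie to the left of 0 for 14, 16 and 15 genes, and with no percentile shift the medians of NFRI 3236 and S288C lie above 0, at 0.39 and 0.22.

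Of the 6 genes for assembly on the cytosolic face, none fell and none rose in NFRI 3236 by limma (0 and 1 at an unadjusted p under 0.05). In NFRI 3155 2 fell and 1 rose, and in S288C 1 rose. Of all genes tested 23.5%, 24.1% and 28.2% fell and 15.7%, 18.1% and 25.2% rose in NFRI 3236, NFRI 3155 and S288C. *ALG7*, which starts the chain with a GlcNAc phosphate, *ALG14*, the membrane anchor of the next transferase, and *ALG1*, which adds the first mannose, passed in no strain, with log2 changes between -0.43 and 0.36. *ALG13* (YGL047W), the catalytic partner of *ALG14*, had 5.69 and 4.17 at 39°C in NFRI 3236, against 2.81 and 2.58 at 30°C. It had 7.77 and 3.40 at 39°C in NFRI 3155, against 1.88 and 1.68 at 30°C. It had 6.66, 4.32 and 3.75 at 39°C in S288C, against 1.5, 1.8 and 1.61 at 30°C. The 2 temperatures did not overlap in any strain, and *ALG13* had the largest mean rise of the 35 genes. The fold was 1.81 in NFRI 3236 (adjusted p = 0.071, limma), 2.9 in NFRI 3155 (adjusted p = 0.00334, limma) and 2.92 in S288C (adjusted p = 0.000528, limma). So the partners of this enzyme did not share a call, since the fold of *ALG14* was 1.15, 1.28 and 1.22 in the same strains. The difference between the 2 genes was not tested.

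*ALG2* and *ALG11*, which add the mannoses that follow, fell in NFRI 3155 and did not pass in the other strains. *ALG2* (YGL065C) had 0.772 and 0.710 at 39°C in NFRI 3236, against 1.02 and 1.02 at 30°C. It had 0.393 and 0.558 at 39°C in NFRI 3155, against 0.848 and 0.762 at 30°C. It had 0.698, 0.757 and 0.926 at 39°C in S288C, against 0.651, 0.471 and 0.714 at 30°C. All 39°C arrays were the lower ones in both NFRI strains, and the temperatures overlapped in S288C. The log2 change was -0.46 ± 0.25 (SE) in NFRI 3236, -0.78 ± 0.25 in NFRI 3155 (adjusted p = 0.0225, limma) and 0.39 ± 0.20 in S288C. For *ALG11* it was -0.47, -0.67 (adjusted p = 0.0322 in NFRI 3155, limma) and -0.38 in the same strains, with every 39°C array below the 30°C arrays of its strain. The difference in heat response between NFRI 3155 and S288C did not pass for *ALG11* (adjusted p = 0.544, limma), nor did that between NFRI 3236 and NFRI 3155 for *ALG2* (adjusted p = 0.715). The NFRI 3155 call of *ALG2* was lost without replicate 1 at 39°C or without either 30°C array (log2 -0.86 to -0.53), and that of *ALG11* without any of the 4 arrays of the strain (-0.69 to -0.65). No call of *ALG13* was lost by leaving out an array, although its log2 change in NFRI 3155 ran from 0.94 to 2.13 (1.53 with all arrays).

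On the lumenal face 3 of the 5 genes fell in all strains, as did 13.7% of all genes tested. *ALG3* and *ALG9* are mannosyltransferases of this side, and *ALG8* adds a glucose near the end of the chain. *ALG3* (YBL082C) had 1.75 and 2.15 at 39°C in NFRI 3236, against 4.55 and 3.27 at 30°C. It had 0.786 and 1.03 at 39°C in NFRI 3155, against 3.19 and 2.98 at 30°C. It had 0.808, 0.719 and 0.804 at 39°C in S288C, against 2.15, 1.73 and 1.87 at 30°C. No 39°C array reached the lowest 30°C array of its own strain. The fold was 0.503 in NFRI 3236 (adjusted p = 0.00409, limma), 0.291 in NFRI 3155 (adjusted p = 4.52e-05) and 0.406 in S288C (adjusted p = 6.38e-05).

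*ALG9* stood at 0.491-fold of its 30°C level in NFRI 3236, 0.558-fold in NFRI 3155 and 0.388-fold in S288C, and *ALG8* at 0.510-, 0.626- and 0.349-fold. The remaining mannosyltransferase, *ALG12*, passed in no strain, with log2 changes of -0.11 ± 0.29 (SE), 0.44 ± 0.29 and -0.21 ± 0.24 in the same order of strains. *ALG6*, which adds the first glucose, fell only in S288C, to 0.664-fold (adjusted p = 0.0195, limma), and without the percentile shift its log2 change there was 0.01. Its log2 change was -0.35 in NFRI 3236 and 0.28 in NFRI 3155. *DIE2*, which adds the last glucose, did not pass in any strain (log2 0.12, -0.09 and -0.71).

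Several of these calls were lost when a single array was left out, while the changes kept their sign. Leaving an array out also lowers the precision. For *ALG8* in NFRI 3155 the log2 change was -0.68 with all arrays and stayed so without replicate 3 of S288C at 30°C. In NFRI 3236, *ALG3* was lost without replicate 1 at 30°C (log2 -0.75), *ALG9* without replicate 2 at 39°C or at 30°C (-0.77 and -1), and *ALG8* without replicate 2 at 39°C or replicate 1 at 30°C (-0.76 and -0.87). In NFRI 3155, *ALG9* was lost without replicate 1 at 39°C or either 30°C array (-0.94 to -0.62), and *ALG8* without any array of the strain or replicate 3 of S288C at 30°C (-0.75 to -0.60). In S288C, *ALG6* was lost without replicate 2 at 39°C or replicate 1 at 30°C (-0.55 and -0.44).

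Of the 3 genes for dolichol phosphate and its sugars, *ALG5* passed in every strain, *SEC59* in NFRI 3155 and *DPM1* in none. Among all genes tested 13.7% fell in all 3 strains and 30.1% passed in none. *ALG5* (YPL227C), the synthase of dolichol-phosphate-glucose, fell in all strains. It had 1.62 and 2.19 at 39°C in NFRI 3236, against 4.56 and 4.57 at 30°C. It had 1.95 and 1.66 at 39°C in NFRI 3155, against 3.92 and 3.67 at 30°C. It had 0.578, 1.38 and 1.56 at 39°C in S288C, against 3.75, 3.36 and 3.72 at 30°C. The temperatures did not overlap, while replicate 1 of S288C at 39°C lay well under the other 39°C arrays. The fold was 0.413 in NFRI 3236 (adjusted p = 0.0139, limma), 0.475 in NFRI 3155 (adjusted p = 0.03) and 0.299 in S288C (adjusted p = 0.000271). The call was lost in NFRI 3236 without replicate 1 at 39°C or either 30°C array (log2 -1.28 to -1.06), and in NFRI 3155 without any of its arrays (-1.19 to -0.96).

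*SEC59* (YMR013C), the dolichol kinase, had 2.71 and 1.47 at 39°C in NFRI 3236, against 1.56 and 1.62 at 30°C. It had 3.30 and 3.41 at 39°C in NFRI 3155, against 1.84 and 1.84 at 30°C. It had 1.29, 1.53 and 1.90 at 39°C in S288C, against 1.87, 1.61 and 1.74 at 30°C. Only NFRI 3155 had separate temperatures, with a 1.83-fold rise (adjusted p = 0.0193, limma) that was lost without any of the 4 arrays of the strain (log2 0.84 to 0.89). In NFRI 3236 the 39°C replicates lay on either side of the 30°C arrays.

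*DPM1* (YPR183W), which makes dolichol-phosphate-mannose for both the lumenal face and the Pmt enzymes, passed in no strain. It had 9.56 and 12 at 39°C in NFRI 3236, against 16.9 and 11.7 at 30°C. It had 10.0 and 12.8 at 39°C in NFRI 3155, against 15.5 and 14.4 at 30°C. It had 12.6, 14.2 and 11.6 at 39°C in S288C, against 10.7, 7.12 and 9.88 at 30°C. The 39°C arrays were the lower ones in NFRI 3155 and the higher ones in S288C. The fold was 0.762 (adjusted p = 0.252, limma), 0.758 (adjusted p = 0.233) and 1.4 (adjusted p = 0.0657) in NFRI 3236, NFRI 3155 and S288C.

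**Figure D2:**
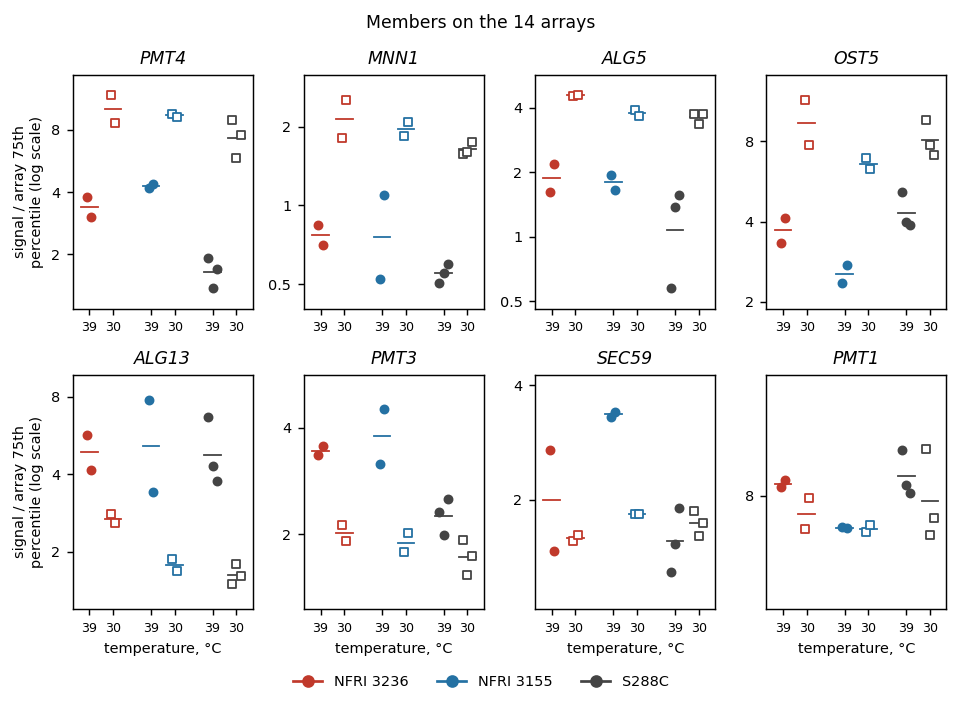
Relative signal (signal over the 75th percentile of the array, log scale) of 8 genes on each of the 14 arrays, with 39°C as filled circles and 30°C as open squares within each strain, and lines at the mean of the log2 values. *PMT4*, *MNN1*, *ALG5* and *OST5* have all 39°C arrays under the 30°C arrays of the strain, *ALG13* and *PMT3* all above, *SEC59* all above only in NFRI 3155, and *PMT1* differs by at most 1.09-fold.

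The oligosaccharyltransferase has a catalytic subunit, *STT3*, small and structural subunits, and a place that is filled either by *OST3* or by *OST6*, which assist glycosylation as oxidoreductases. Of its 9 genes 4 fell in NFRI 3236, 5 in NFRI 3155 and 4 in S288C (44.4%, 55.6% and 44.4%), where 23.5%, 24.1% and 28.2% of all genes fell. None rose by limma in any strain, where 15.7%, 18.1% and 25.2% of all genes rose. At an unadjusted p under 0.05 none rose either, and the highest log2 change was 0.13 (*OST4* in NFRI 3236, adjusted p = 0.739, limma). *OST1*, *OST5* and *OST6* fell in all 3 strains and kept their calls whichever array was left out.

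*OST5* (YGL226C-A), a small membrane subunit, had 3.34 and 4.13 at 39°C in NFRI 3236, against 11.4 and 7.73 at 30°C. It had 2.36 and 2.75 at 39°C in NFRI 3155, against 6.93 and 6.29 at 30°C. It had 5.17, 3.98 and 3.90 at 39°C in S288C, against 9.66, 7.75 and 7.12 at 30°C. The groups were separate in each strain, at folds of 0.395, 0.386 and 0.532 (adjusted p = 0.00108, 0.000697 and 0.00216, limma). *OST1*, whose product binds next to the catalytic subunit, had folds of 0.423, 0.539 and 0.420 in NFRI 3236, NFRI 3155 and S288C. *OST6* had folds of 0.464, 0.397 and 0.468 in these strains.

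*STT3* (YGL022W) changed less. It had 4.80 and 5.82 at 39°C in NFRI 3236, against 8.78 and 7.74 at 30°C. It had 3.95 and 4.12 at 39°C in NFRI 3155, against 6.42 and 6.70 at 30°C. It had 3.49, 3.47 and 4.03 at 39°C in S288C, against 5.02, 4.49 and 4.75 at 30°C. Every 39°C array lay below the 30°C arrays of its strain, and the fold was 0.641 in NFRI 3236 (adjusted p = 0.0174, limma), 0.615 in NFRI 3155 (adjusted p = 0.0097) and 0.769 in S288C (adjusted p = 0.0568). Without the percentile shift the log2 change in NFRI 3236 was 0.20. The call was lost in NFRI 3236 without replicate 1 at 39°C or at 30°C (log2 -0.50 and -0.55), and in NFRI 3155 without replicate 2 at 30°C (-0.67).

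*OST3*, the alternative to *OST6*, fell in NFRI 3155, to 0.590-fold (adjusted p = 0.0345, limma), and in S288C, to 0.629-fold (adjusted p = 0.0201). In NFRI 3236 its log2 change was -0.09 ± 0.27 (SE, adjusted p = 0.816), with overlapping temperatures. The calls of *OST3* were lost in NFRI 3155 without replicate 1 at 39°C or either 30°C array (-0.87 to -0.42) and in S288C without replicate 2 at 39°C or replicate 1 at 30°C (-0.62 and -0.50). *WBP1*, *SWP1* and *OST2*, further subunits, and *OST4*, the smallest, passed in no strain, with log2 changes between -0.46 and 0.13.

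*WBP1* is also carried by 3 control probe sets along its length. The probe set for the gene changed 0.756-, 0.831- and 0.849-fold in NFRI 3236, NFRI 3155 and S288C. The 3′ set changed 0.765-, 0.842- and 0.755-fold and the middle set 0.786-, 0.840- and 0.785-fold, so these 3 probe sets gave values on the same side of 1 in each strain. The 5′ set changed 0.552-, 0.645- and 1.10-fold. These are descriptions without a test, and the 5′ set differed most from the rest.

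The 6 protein *O*-mannosyltransferases split by gene. In yeast, Pmt1 works mainly in a complex with Pmt2, Pmt5 can pair with Pmt3, and Pmt4 pairs with itself and acts on membrane-bound proteins. With the percentile shift *PMT4* and *PMT5* fell in all 3 strains, and *PMT3* rose in NFRI 3236 and NFRI 3155. At this setting *PMT1*, *PMT2* and *PMT6* passed in none. Of all genes tested 13.7% fell in all 3 strains and 30.1% passed in none.

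*PMT4* (YJR143C) had the largest mean fall of the 35 genes. It had 3.79 and 3.04 at 39°C in NFRI 3236, against 11.8 and 8.59 at 30°C. It had 4.16 and 4.35 at 39°C in NFRI 3155, against 9.53 and 9.23 at 30°C. It had 1.92, 1.37 and 1.71 at 39°C in S288C, against 8.90, 5.82 and 7.53 at 30°C. The 39°C and 30°C arrays lay far apart in each strain. The log2 change was -1.57 ± 0.25 (SE) in NFRI 3236, a fold of 0.337 (adjusted p = 0.00041, limma). It was -1.14 ± 0.25 in NFRI 3155, a fold of 0.453 (adjusted p = 0.00285), and -2.15 ± 0.21 in S288C, a fold of 0.226 (adjusted p = 1.99e-06). No call of *PMT4* was lost by leaving out an array, and only S288C kept its call with no percentile shift.

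*PMT3* (YOR321W) moved the other way. It had 3.34 and 3.56 at 39°C in NFRI 3236, against 2.13 and 1.92 at 30°C. It had 3.17 and 4.51 at 39°C in NFRI 3155, against 1.78 and 2.02 at 30°C. It had 2.31, 1.99 and 2.51 at 39°C in S288C, against 1.93, 1.54 and 1.74 at 30°C. Every 39°C array was above the 30°C arrays of its strain, also in S288C, where the gap was narrow. The fold was 1.70 in NFRI 3236 (adjusted p = 0.0149, limma), 1.99 in NFRI 3155 (adjusted p = 0.00289) and 1.31 in S288C (adjusted p = 0.0914). The NFRI 3236 call was lost without replicate 2 at 39°C or at 30°C (log2 0.72 and 0.69).

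*PMT5* stood at 0.410-fold of its 30°C level in NFRI 3236 (adjusted p = 0.00236, limma), 0.581-fold in NFRI 3155 (adjusted p = 0.0333) and 0.349-fold in S288C (adjusted p = 7.43e-05). The NFRI 3155 call was lost without replicate 1 at 39°C or either 30°C array (log2 -0.88 to -0.45). *PMT1* was the steadiest of the family, with log2 changes of 0.13 ± 0.19 (SE), 0.00 ± 0.19 and 0.11 ± 0.16 in NFRI 3236, NFRI 3155 and S288C. Those of *PMT2* were -0.35, 0.17 and 0.15, and those of *PMT6* -0.45, -0.47 and 0.44. With quantile normalization *PMT2* in NFRI 3236 was at 0.77 (adjusted p = 0.0182, limma), the opposite sign. The outcome was the same in 6 of 7 alternative settings for *PMT1* in NFRI 3236 and S288C. The same held for *PMT2* in each strain and for *PMT6* in S288C. That these genes did not pass thus depends on the setting.

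In the Golgi, 4 of the 6 mannosyltransferases fell in NFRI 3236, 3 in NFRI 3155 and 4 in S288C. Among all genes tested 23.5%, 24.1% and 28.2% fell in these strains, and 13.7% fell in all 3. *MNN9*, a subunit of the complexes that extend the mannan backbone, *MNN1*, which caps branches with terminal mannose, and *KRE2*, which lengthens *O*-linked chains, fell in all 3 strains. *MNN1* (YER001W) had 0.841 and 0.704 at 39°C in NFRI 3236, against 1.81 and 2.53 at 30°C. It had 0.524 and 1.10 at 39°C in NFRI 3155, against 1.85 and 2.08 at 30°C. It had 0.505, 0.551 and 0.599 at 39°C in S288C, against 1.57, 1.60 and 1.75 at 30°C. The temperatures were separate throughout, with replicate 2 of NFRI 3155 the highest of the 39°C arrays. The fold was 0.359 in NFRI 3236 (adjusted p = 0.00178, limma), 0.388 in NFRI 3155 (adjusted p = 0.00239) and 0.336 in S288C (adjusted p = 0.00012), and these calls held whichever array was left out.

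*MNN9* stood at 0.644-, 0.452- and 0.479-fold of its 30°C level in NFRI 3236, NFRI 3155 and S288C, and *KRE2* at 0.543-, 0.609- and 0.567-fold. *OCH1*, which starts the outer chain, had log2 changes of -0.33 ± 0.31 (SE), -0.43 ± 0.31 and -0.59 ± 0.25 and passed in no strain. The call of *MNN9* in NFRI 3236 was lost without replicate 1 at 39°C or replicate 2 at 30°C of the strain, or without either 30°C array of NFRI 3155 (log2 -0.63 to -0.46), and its change there was 0.20 with no percentile shift. *KRE2* was lost in NFRI 3236 without replicate 2 at 39°C or replicate 1 at 30°C (both -0.80) and in NFRI 3155 without replicate 1 at 39°C or either 30°C array (-0.79 to -0.54).

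*MNN2* and *MNN5* add the mannoses of the side branches, *MNN2* the first and *MNN5* the next. *MNN5* (YJL186W) had 1.59 and 1.20 at 39°C in NFRI 3236, against 2.46 and 2.48 at 30°C. It had 1.99 and 2.49 at 39°C in NFRI 3155, against 3.27 and 3.05 at 30°C. It had 0.495, 0.763 and 0.947 at 39°C in S288C, against 1.96, 2.25 and 2.44 at 30°C. Each strain had its 39°C arrays below its 30°C arrays, and the gap was widest in S288C. The fold was 0.559 in NFRI 3236 (adjusted p = 0.0293, limma), 0.704 in NFRI 3155 (adjusted p = 0.163) and 0.322 in S288C (adjusted p = 5.12e-05). The NFRI 3236 call was lost without replicate 2 at 39°C or either 30°C array (log2 -0.85 to -0.64).

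*MNN2* (YBR015C) had 3.57 and 2.97 at 39°C in NFRI 3236, against 3.68 and 4.18 at 30°C. It had 4.23 and 5.84 at 39°C in NFRI 3155, against 7.63 and 6.72 at 30°C. It had 3.00, 3.75 and 4.68 at 39°C in S288C, against 2.85, 2.76 and 3.07 at 30°C. The 39°C arrays were the lower ones in the NFRI strains and overlapped the 30°C arrays in S288C. The log2 changes of -0.27 ± 0.24 (SE), -0.53 ± 0.24 and 0.37 ± 0.20 did not pass the test (adjusted p = 0.417, 0.0989 and 0.13, limma).

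Because a ratio of 2 genes on the same array does not depend on a factor that scales the whole array, the changes of a few such ratios are given as descriptions without a test. The pairs, related enzymes and *ALG9* with *ACT1*, were chosen with earlier results known, and a change shows only that the genes of a pair changed unequally. The ratio of *PMT3* to *PMT4* changed 5.05-fold in NFRI 3236, 4.40-fold in NFRI 3155 and 5.78-fold in S288C. Every 39°C array lay above the 30°C arrays of its strain. The ratio of *PMT5* to *PMT1* changed 0.374-, 0.580- and 0.324-fold in the same strains, with every 39°C array below. That of *PMT3* to *PMT2* changed 2.18-fold in NFRI 3236 and 1.77-fold in NFRI 3155, with separate temperatures, and 1.17-fold in S288C, with overlapping ones. That of *PMT6* to *PMT2* went opposite ways, changing 0.640-fold in NFRI 3155 with every 39°C array below and 1.22-fold in S288C with every 39°C array above, and in NFRI 3236 it changed 0.936-fold with overlapping temperatures.

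The ratio of *OST6* to *OST3* changed 0.495-fold in NFRI 3236, 0.673-fold in NFRI 3155 and 0.744-fold in S288C, and the temperatures overlapped in S288C. That of *MNN5* to *MNN2* changed 0.672-fold in NFRI 3236, 1.01-fold in NFRI 3155 and 0.248-fold in S288C. In NFRI 3155 the arrays of the 2 temperatures overlapped, while in S288C they were far apart. *ALG9*, often used as a reference transcript in yeast, was set against *ACT1*, the actin gene. *ACT1* itself had a fold of 0.518 (adjusted p = 0.0407, limma), 0.712 (adjusted p = 0.267) and 0.648 (adjusted p = 0.0733) in NFRI 3236, NFRI 3155 and S288C, and the ratio of *ALG9* to it changed 0.947-, 0.783- and 0.599-fold, with separate temperatures only in NFRI 3155.

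**Figure D3:**
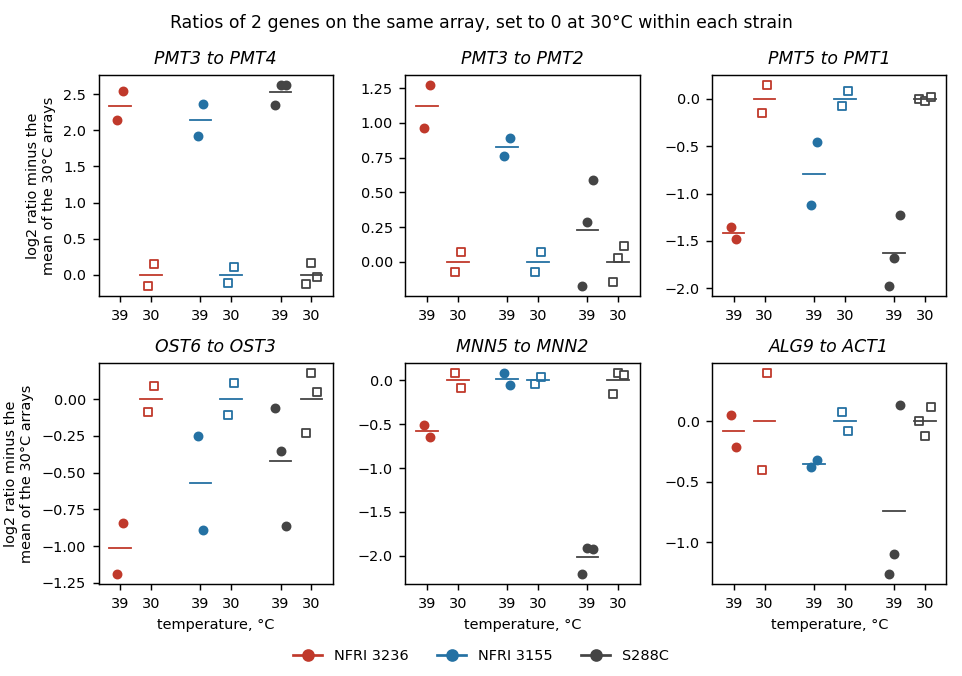
Log2 ratio of 2 genes on the same array for 6 pairs, with the mean of the 30°C arrays of the strain set to 0, so that only changes are shown. Filled circles are 39°C arrays, open squares 30°C arrays and lines the group means, and the 39°C arrays of *PMT3* to *PMT4* stand 2.34, 2.14 and 2.53 above 0 on average in NFRI 3236, NFRI 3155 and S288C.

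The strains differ in heat tolerance, so the difference of their heat responses was tested itself. Between NFRI 3236 and S288C no gene of the 35 passed by limma (4 at an unadjusted p under 0.05, and 551 of all genes tested, 10.1%, at the adjusted threshold). At the unadjusted threshold 27.4% of all genes differed. Between NFRI 3155 and S288C 2 genes passed (9 at an unadjusted p under 0.05), where 16.5% of all genes passed and 32% did so unadjusted. Between NFRI 3236 and NFRI 3155 none passed (1 at an unadjusted p under 0.05), where 2.5% of all genes passed and 16% did so unadjusted. The share of the 35 genes that passed was below that of all genes in each of these comparisons at this setting, and this was not tested. With quantile normalization 5 of the 35 had a higher and 1 a lower heat response in NFRI 3155 than in S288C. Among all 5443 genes tested 494 were higher and 494 lower there. Between the NFRI strains so few of all genes passed that none among 35 says little. The SE of these differences lay between 0.25 and 0.52 on the log2 scale.

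The genes that passed were *ALG2* and *MNN5*, each in NFRI 3155 against S288C. For *ALG2* the heat change was -0.78 in NFRI 3155 and 0.39 in S288C, a difference of -1.16 ± 0.32 (SE, adjusted p = 0.0271, limma). For *MNN5* it was -0.51 in NFRI 3155 and -1.64 in S288C, a difference of 1.13 ± 0.36 (adjusted p = 0.0483). None of the other 33 genes, *PMT4*, *SEC59* and *ALG3* included, had a difference that passed. Both calls were lost with no percentile shift (adjusted p = 0.179 for *ALG2* and 0.562 for *MNN5*, limma). With the replicate block they were lost as well (adjusted p = 0.0523 and 0.0561, limma). *ALG2* was also lost without replicate 1 of NFRI 3155 at 39°C, either of its 30°C arrays, replicate 3 of S288C at 39°C or replicate 2 of S288C at 30°C (log2 -1.24 to -0.91, adjusted p = 0.0544 to 0.101, limma). *MNN5* kept its call only without either 39°C array of NFRI 3236, replicate 3 of S288C at 39°C or replicate 1 of NFRI 3155 at 39°C, and was lost without any of the other 10 arrays (0.87 to 1.22, adjusted p = 0.0556 to 0.144, limma).

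At 39°C, 7 of the 35 genes were higher in NFRI 3236 than in S288C and none was lower by limma (1 at an unadjusted p under 0.05, 0 by the methods' t-test). Among all genes tested 13.1% were higher and 14.9% lower. The 7 genes were *ALG3*, *ALG9*, *ALG8*, *STT3*, *PMT3*, *PMT4* and *MNN5*. *ALG3* was 2.50-fold higher (adjusted p = 0.000515, limma) and *PMT4* 2.06-fold higher (adjusted p = 0.00519), and the others were 1.45- to 1.94-fold higher. In NFRI 3155, 10 genes were higher than in S288C and 3 were lower, where 21.6% and 23.1% of all genes were. The higher ones were *ALG9*, *ALG12*, *ALG6*, *ALG8*, *SEC59*, *OST1*, *PMT3*, *PMT4*, *PMT5* and *MNN5*, led by *MNN5* at 3.13-fold (adjusted p = 0.000285) and *PMT4* at 2.58-fold (adjusted p = 0.000528). The lower ones were *ALG2*, at 0.595-fold, *OST5*, at 0.591-fold, and *OST4*, at 0.622-fold, and with no percentile shift the log2 differences were -0.03, -0.04 and 0.04, so that *OST4* changed sign. For *PMT4* and *MNN5* the arrays of each NFRI strain at 39°C lay above all 3 arrays of S288C. The comparisons share these S288C arrays, as do the tests of heat response against S288C.

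Between the NFRI strains at 39°C, *ALG3* was 2.16-fold higher in NFRI 3236 than in NFRI 3155 (adjusted p = 0.00495, limma), *OST3* 1.93-fold higher (adjusted p = 0.0256) and *ALG6* 0.603-fold (adjusted p = 0.0427). Among all genes tested 9.65% were higher and 10.7% lower. *OST3* had 6.28 and 5.33 in NFRI 3236, against 2.38 and 3.80 in NFRI 3155, and *ALG6* had 6.84 and 4.72 in NFRI 3236, against 8.75 and 10.2 in NFRI 3155. The *ALG3* call was lost without replicate 2 of NFRI 3236 (log2 0.96, adjusted p = 0.0522), the *OST3* call without any 39°C array of these strains except replicate 2 of NFRI 3155 (0.61 to 1.06), and the *ALG6* call without any of 11 of the 14 arrays (-0.84 to -0.46).

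Among the calls against S288C at 39°C, those of *ALG9*, *PMT4* and *MNN5* in NFRI 3236 were lost without replicate 1 of NFRI 3236 at 39°C (log2 0.67, 0.88 and 0.76). *ALG8* was lost without that array or replicate 2 or 3 of S288C at 39°C (0.51 to 0.64), *STT3* without any of 7 arrays (0.39 to 0.53) and *PMT3* without any of 9 (0.52 to 0.66). In NFRI 3155, *ALG12* and *PMT3* were lost without its replicate 2 at 39°C (0.76 and 0.49), *OST5* without replicate 1 (-0.65), *ALG2* without replicate 1 or replicate 3 of S288C at 39°C (-0.63 to -0.50), and *OST4* without either 39°C array of the strain or replicate 1 of S288C at 39°C (-0.72 to -0.45). The calls that held for every array left out were *ALG3* in NFRI 3236 and *ALG9*, *ALG6*, *ALG8*, *SEC59*, *OST1*, *PMT4*, *PMT5* and *MNN5* in NFRI 3155.

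At 30°C, 3 of the 35 genes differed between NFRI 3236 and S288C, 3 between NFRI 3155 and S288C and 1 between the NFRI strains, and these numbers were not tested against those at 39°C. In NFRI 3236, 3 were higher than in S288C and none was lower by limma (2 at an unadjusted p under 0.05 and 2 by the methods' t-test). Of all genes 15.4% were higher and 13.8% lower. They were *ALG3*, at 2.02-fold (adjusted p = 0.00327, limma), *STT3*, at 1.74-fold (adjusted p = 0.0049), and *ALG2*, at 1.69-fold (adjusted p = 0.0245). *ALG2* had 1.02 and 1.02 in NFRI 3236, against 0.651, 0.471 and 0.714 in S288C, so the highest S288C array lay under both. In NFRI 3155, 3 were higher than in S288C and none was lower by limma (1 at an unadjusted p under 0.05 and 3 by the methods' t-test). Of all genes 16.3% were higher and 13.9% lower. They were *MNN2*, at 2.48-fold (adjusted p = 0.000799), *DPM1*, at 1.65-fold (adjusted p = 0.0349), and *ALG3*, at 1.61-fold (adjusted p = 0.0236). *MNN2* had 7.63 and 6.72 in NFRI 3155, against 2.85, 2.76 and 3.07 in S288C.

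Between the NFRI strains at 30°C no gene of the 35 was higher by limma (0 at an unadjusted p under 0.05 and 4 by the methods' t-test), where 4.45% of all genes were. The gene that was lower, as were 4.46% of all genes, was *MNN2*, at 0.547-fold in NFRI 3236 against NFRI 3155 (adjusted p = 0.0412). This call was lost without any of 8 arrays (log2 -0.96 to -0.78). The order of *MNN2* at 30°C was thus NFRI 3155, NFRI 3236 and S288C from high to low, and the step from NFRI 3236 to S288C did not pass the test. Against S288C, *ALG3* and *STT3* in NFRI 3236 were lost without its replicate 1 at 30°C (0.78 and 0.71), and *ALG2* without either 30°C array of NFRI 3236 or replicate 2 of S288C (0.58 to 0.75). *ALG3* and *DPM1* in NFRI 3155 were lost without either of its 30°C arrays or replicate 2 or 3 of S288C (0.62 to 0.74 and 0.54 to 0.78), and *MNN2* in NFRI 3155 was not lost by leaving out an array.

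The S288C arrays were dimmer at each temperature. At 39°C their 75th percentile was at most 269, under that of every NFRI array, and at 30°C it was at most 135, where the NFRI arrays had at least 171. With no percentile shift 27 of the 35 genes differed between NFRI 3236 and S288C at 39°C, 24 did so at 30°C, and 28 differed between NFRI 3155 and S288C at 30°C. All of these were higher in the NFRI strain. Of all 5443 genes tested, 2994, 2394 and 3159 were higher and 104, 106 and 118 lower in the same comparisons. The array was designed on the sequence of S288C, so that a difference in level and a difference in the sequence under the probes cannot be told apart. What such a difference does to the change between temperatures within a strain was not tested.

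**Figure D4:**
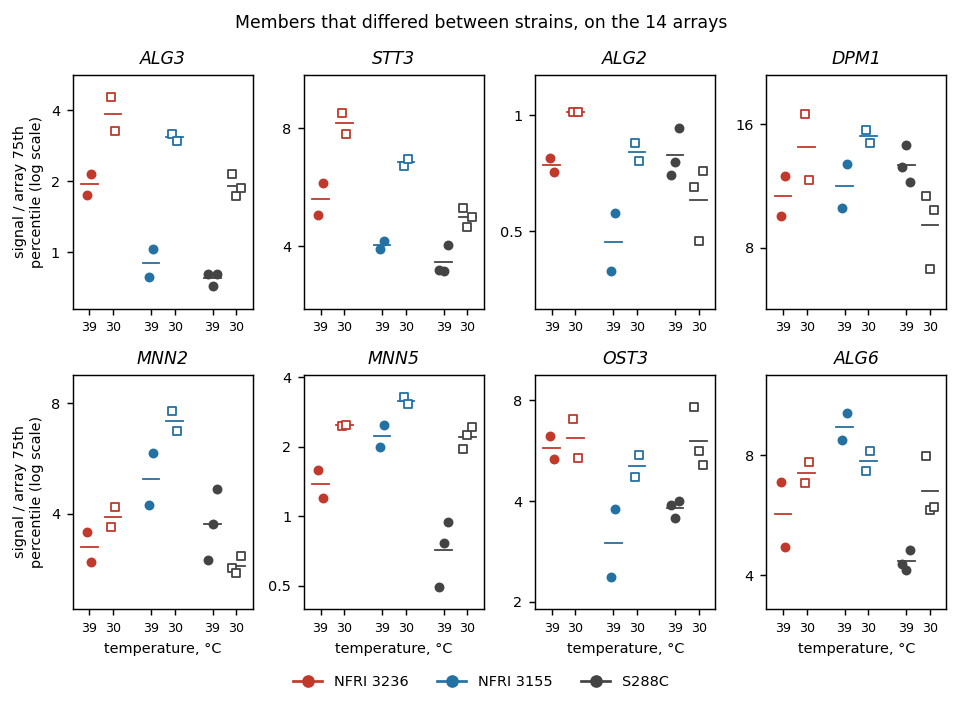
Relative signal (signal over the 75th percentile of the array, log scale) of 8 genes that differed between strains, on each of the 14 arrays, with 39°C as filled circles and 30°C as open squares within each strain, and lines at the mean of the log2 values. *ALG3* and *STT3* are higher in NFRI 3236 than in S288C at both temperatures, *MNN2* is highest in NFRI 3155 at 30°C (6.72 and 7.63), and *MNN5* is lowest in S288C at 39°C (0.495 to 0.947).

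Other genes of the same route were described from lists chosen with earlier results known, to set the 35 genes in their surroundings. The shares below stand beside the 23.5%, 24.1% and 28.2% of all genes that fell and the 15.7%, 18.1% and 25.2% that rose in NFRI 3236, NFRI 3155 and S288C. Of 17 genes for sugar nucleotides and dolichol, 4 fell and 1 rose in NFRI 3236, 4 fell and 1 rose in NFRI 3155, and 6 fell and 5 rose in S288C. The shares that fell, 23.5%, 23.5% and 35.3%, were close to those of all genes in both NFRI strains. *VRG4*, the Golgi carrier of GDP-mannose, had folds of 0.325, 0.284 and 0.266 in NFRI 3236, NFRI 3155 and S288C, and *GDA1*, the GDPase that lets this exchange run, had folds of 0.302, 0.253 and 0.431. Each fell in all 3 strains. *NUS1*, a subunit of the enzyme that makes the dolichol chain, rose in NFRI 3236 (2.24-fold) and in S288C (5.12-fold), and its fold of 1.49 in NFRI 3155 did not pass (adjusted p = 0.0876, limma). *SRT1*, a further enzyme of dolichol synthesis, was above background on none of the 30°C arrays of the NFRI strains and on 1 of 3 of S288C. It was at least 2.38-fold higher at 39°C in NFRI 3155, measured against the background level (adjusted p = 0.00012, limma), and at least 2.67-fold higher in S288C by the same measure (adjusted p = 0.000194). In NFRI 3236 no fold can be given.

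Of 17 further Golgi mannosyltransferases, 9 fell and 2 rose in NFRI 3236, 7 fell and 2 rose in NFRI 3155, and 8 fell and 3 rose in S288C, so that 52.9%, 41.2% and 47.1% fell. *MNN10*, of the same backbone complexes as *MNN9*, had folds of 0.432, 0.219 and 0.441, and *KTR7*, a relative of *KRE2*, had folds of 0.392, 0.441 and 0.376. *KTR2*, another relative of *KRE2*, rose 4.05-, 3.44- and 4.08-fold in NFRI 3236, NFRI 3155 and S288C. *MNN4*, which is needed for mannosylphosphate, rose in NFRI 3236 (2.78-fold) and in S288C (6.4-fold), with a fold of 0.721 in NFRI 3155 that did not pass (adjusted p = 0.431, limma). So close relatives within this family passed in opposite directions in the same strains.

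Among 11 genes of glycan trimming and lectin-based quality control, 3 rose and 1 fell in NFRI 3236, 3 rose and 1 fell in NFRI 3155, and 5 rose and 2 fell in S288C, so that 27.3%, 27.3% and 45.5% rose. *AMS1*, the vacuolar mannosidase, rose 14.6-fold in NFRI 3236, 24.2-fold in NFRI 3155 and at least 30.5-fold in S288C, where it was above background on 1 of 3 arrays at 30°C and was measured against the background level. *KRE5*, an ER protein needed for cell wall glucan, rose 1.83-, 2.25- and 5-fold. *MNL1*, a mannosidase that marks misfolded glycoproteins for degradation, fell to 0.331-, 0.436- and 0.179-fold. *ROT2*, a subunit of glucosidase II, passed the test in S288C alone, with a fall to 0.658-fold.

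For 28 genes of GPI anchor synthesis and attachment, which draw mannose from the same dolichol-linked donor, 2 rose and 5 fell in NFRI 3236, 5 rose and 2 fell in NFRI 3155, and 4 rose and 13 fell in S288C. The shares that fell, 17.9%, 7.14% and 46.4%, were below those of all genes in the NFRI strains and above it in S288C. *MCD4* rose 1.81-, 2.87- and 2.74-fold and *GWT1* 1.61-, 2.50- and 2.00-fold, both enzymes of anchor assembly, while *TED1*, which acts on the anchor after its attachment, fell to 0.456-, 0.584- and 0.482-fold. *CWH43*, which exchanges the lipid of the anchor, passed the test in S288C alone, with a fall to 0.353-fold. Of 15 ER folding genes 7 rose in NFRI 3236, 8 in NFRI 3155 and 11 in S288C (46.7%, 53.3% and 73.3%), and 1 fell, *ERV2* in S288C. *SIL1*, an exchange factor of the ER Hsp70, rose 5.23-, 8.89- and 7.87-fold, and *ERO1*, the ER oxidase, rose 4.41-, 5.80- and 8.78-fold. The difference between this list and the 35 genes was not tested.

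Of 21 translocon, signal peptidase and signal recognition genes, 8 fell in NFRI 3236 and 9 in NFRI 3155, and none rose there by limma (1 and 0 at an unadjusted p under 0.05). In S288C 5 fell and 3 rose. The shares that fell were 38.1%, 42.9% and 23.8%, the last of them under that of all genes. *SBH2* had folds of 0.336, 0.395 and 0.406 and *SSH1* folds of 0.427, 0.428 and 0.317, both of the second, non-essential translocon. *SEC72* and *SEC63*, of the channel for transport after translation, passed the test in S288C only, at 2.24- and 1.62-fold. A call in a single strain does not show a difference between strains. A fold in NFRI 3236 of 1.47 for *SEC72* did not pass (adjusted p = 0.135, limma).

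**Figure D5:**
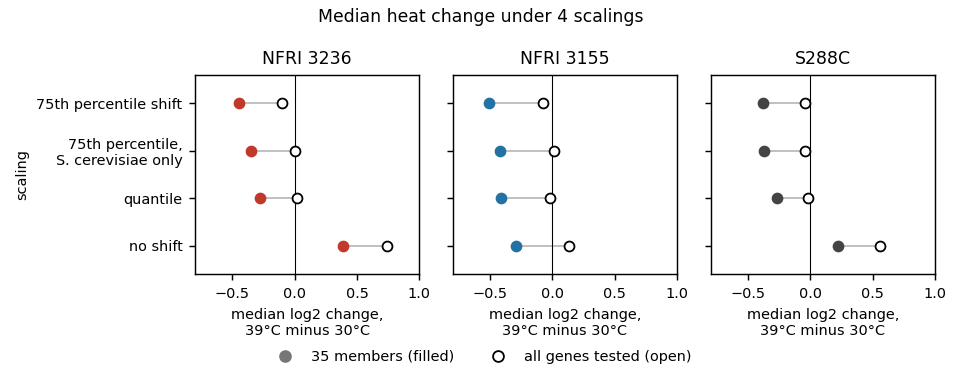
Median log2 change at 39°C minus 30°C of the 35 genes (filled) and of all 5443 genes tested (open) in each strain, under 4 scalings of the arrays. The median of the 35 genes lies below that of all genes in each panel, by an amount that a shift of whole arrays cannot alter and that only quantile normalization could move here (-0.30, -0.39 and -0.25), and with no shift their own median is above 0 in NFRI 3236 (0.39) and S288C (0.22) and below 0 in NFRI 3155 (-0.29).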

How the data were processed

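RNA of 3 *S. cerevisiae* strains at 39°C or 30°C was measured on 14 arrays. The authors deposited 1 linear signal intensity per probe set, made with GCOS at default settings. The percentile shift and the filters on low values and detection flags in their methods came later, and the flags were not used here. Signals below 1 were set to 1, taken to log2 and centred by subtracting, for each array, its 75th percentile (10928 probe sets). A gene entered the tests if some group had it above the 20th percentile on all its arrays (5443 of 5449, all 35 members included). For 47 genes with several probe sets the brightest was used. No coordinates were used, since the build behind the probes is not given in the sources used here.

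The tests came from limma 3.58.1 (R 4.3.3), fitting a mean for each of 6 groups over all 14 arrays, two-sided, and Benjamini-Hochberg adjustment over all genes. The median SD was 0.27 (log2), with 8 residual and 5.1 prior degrees of freedom, and precision is limited by how few arrays there are. The fit was tested on simulated data in which 200 of 5443 genes changed, fewer than passed in these data. Of changes of log2 1 it found 36% in NFRI 3236, 30.5% in NFRI 3155 and 55% in S288C. Of changes of log2 2 it found 93%, 92.5% and 97%. A gene that did not pass may therefore still have changed. The members and gene lists were chosen with earlier results of these data known. Values on every array are given for the 3 largest mean falls among members that fell in all strains, the 3 largest rises among those that rose in any, members differing in heat response, and the 3 largest strain differences at 30°C per pair of strains, with *OST5*, *OST3* and *ALG6* added after their values were seen. From each further list come up to 2 genes that rose and 2 that fell. The methods state duplicates from cells grown independently, while S288C has 3 arrays a group. The labels do not tie arrays to cultures, and all arrays were used. Alternatives were other scalings, an added 16, other filters, a replicate block, the methods' t-test, and each array left out.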

Additional observations from a re-analysis of the deposited data

Results flagged for a closer look

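For 2 of the 35 genes the test of the difference itself set the heat response of NFRI 3155 apart from that of S288C. The same test passed for 899 of all 5443 genes tested (16.5%), so such a call was not particular to these genes. For *ALG2*, a mannosyltransferase of the cytosolic face, the difference was -1.16 on the log2 scale (adjusted p = 0.0271, limma), with both 39°C arrays below both 30°C arrays in NFRI 3155 and overlapping temperatures in S288C. For *MNN5*, a Golgi mannosyltransferase, it was 1.13 (adjusted p = 0.0483), with the 39°C arrays below the 30°C arrays in both strains. In NFRI 3236 minus S288C the differences were -0.84 for *ALG2* and 0.80 for *MNN5*, and neither passed (adjusted p = 0.109 and 0.175, limma). Both genes were above background on all 14 arrays. Both calls were lost with no percentile shift (-1.55 for *ALG2* and 0.74 for *MNN5*) and with the replicate block, that of *ALG2* without any of 5 arrays and that of *MNN5* without any of 10 of the 14. Groups of 2 or 3 arrays were too small for a test of single outlying arrays.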

How the results depend on the processing

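Of the 50 heat calls among the 35 genes, 50 were kept with 16 added to each signal, with no filter on low values or with only genes above background, 44 with the percentile taken over *S. cerevisiae* probe sets, 37 with quantile normalization and 9 with no percentile shift. Whichever single array was left out, 29 calls were kept, 6 of 15 in NFRI 3236, 9 of 19 in NFRI 3155 and 14 of 16 in S288C. The spread of a group left with 1 array was assumed to be that of the other groups. Numbers of calls without an array describe their dependence on single arrays and are not a result about the 35 genes. With no shift the log2 change turned to 0.01 for *ALG6* in S288C and to 0.20 for *STT3* and *MNN9* in NFRI 3236, and with quantile normalization to 0.77 for *PMT2* in NFRI 3236. The cause of these shifts between settings was not tested. The number of arrays limits the precision.

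Counts that moved were as follows, out of 35. With no shift 2 genes were higher and 0 lower at 39°C in NFRI 3236, 1 and 1 in NFRI 3155, and 6 and 5 in S288C. Heat responses of NFRI 3155 and S288C then differed for 0 genes. Of all 5443 genes tested 1486 were higher and 121 lower in NFRI 3236, 591 and 503 in NFRI 3155, and 1839 and 449 in S288C. The heat response of NFRI 3155 minus S288C was higher for 32 of all genes and lower for 140. Levels differed for 27 of the 35 genes between NFRI 3236 and S288C and for 1 between the NFRI strains at 39°C. At 30°C they differed for 24 between NFRI 3236 and S288C, 28 between NFRI 3155 and S288C and 0 between the NFRI strains. Of all 5443 genes, 2994 were higher and 104 lower in NFRI 3236 than in S288C at 39°C, and 2394 and 106 at 30°C. In NFRI 3155 3159 were higher and 118 lower than in S288C at 30°C. With quantile normalization 3, 5 and 4 of the 35 genes were higher in NFRI 3236, NFRI 3155 and S288C, 9 were lower in NFRI 3236 and 10 in NFRI 3155, 6 differed in heat response between NFRI 3155 and S288C, and 0 differed between the NFRI strains at 30°C. Of all 5443 genes, 956, 1083 and 1405 were higher in these strains, 936 lower in NFRI 3236 and 1161 in NFRI 3155. That heat response differed upward for 494 and downward for 494 of all genes. At 30°C 197 were higher and 218 lower in NFRI 3236 than in NFRI 3155. With the *S. cerevisiae* percentile 2 of the 35 were higher in NFRI 3236 and 5 differed in heat response between NFRI 3155 and S288C. Of all genes 976 were higher in NFRI 3236, and that heat response differed upward for 492 and downward for 405. With 16 added 2 of the 35 were higher in NFRI 3236 and 2 in S288C, 6 differed in heat response between NFRI 3155 and S288C, and 11 differed between NFRI 3236 and S288C at 39°C, 9 at 30°C, and 8 between NFRI 3155 and S288C at 30°C. Of all genes 839 were higher in NFRI 3236 and 1209 in S288C, and that heat response differed upward for 519 and downward for 571. In the 3 comparisons of levels 785, 876 and 890 of all genes were higher and 1206, 1009 and 1127 lower. With only genes above background 2 of the 35 were higher in NFRI 3236 and 4 differed in heat response between NFRI 3155 and S288C. Of the 4946 genes then tested 789 were higher in NFRI 3236, and that heat response differed upward for 422 and downward for 538.

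The same-numbered arrays did not deviate together (correlations of -0.08 in NFRI 3236, -0.01 in NFRI 3155 and 0.02 to 0.05 in S288C, where each array correlated best with its own number, unlike in the NFRI strains), so the numbers were not taken as pairs. With the replicate block 44 heat calls were kept. The heat response then differed for 0 of the 35 genes between NFRI 3155 and S288C (adjusted p = 0.0523 for *ALG2* and 0.0561 for *MNN5*, limma). At 39°C 4 of the 35 differed between NFRI 3236 and S288C. At 30°C 1 differed between NFRI 3155 and S288C and 0 between the NFRI strains. Of all 5443 genes tested, that heat response differed upward for 280 and downward for 323. In NFRI 3236 582 were higher and 685 lower than in S288C at 39°C. In NFRI 3155 738 were higher and 699 lower than in S288C at 30°C. Between the NFRI strains at 30°C 208 were higher and 192 lower in NFRI 3236.

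By the methods' t-test at an unadjusted p under 0.05, 8 genes were lower in NFRI 3236, 1 was higher in NFRI 3155 and 2 in S288C, and 10, 12 and 7 differed at 30°C between NFRI 3236 and S288C, NFRI 3155 and S288C, and the NFRI strains. Of all 5443 genes, 897 were lower in NFRI 3236, 786 higher in NFRI 3155 and 1423 higher in S288C. Between the same pairs at 30°C 1215, 1309 and 562 were higher and 1061, 1179 and 531 lower. After Benjamini-Hochberg adjustment that test called 0 of the 35 genes in either direction in NFRI 3236 and NFRI 3155. It called 0, 1 and 0 between the same pairs at 39°C, and at 30°C 8 between NFRI 3155 and S288C and 0 between the NFRI strains. Of all 5443 genes it called 44 higher and 55 lower between NFRI 3236 and S288C at 39°C. Between NFRI 3155 and S288C it called 167 higher and 166 lower at 39°C, and 688 higher and 595 lower at 30°C. It called 0 of all genes in either direction in NFRI 3236 and NFRI 3155, and 0 between the NFRI strains at either temperature. The counts there say nothing about the 35 genes.

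With each array left out in turn, 0 to 2 genes were higher and 8 to 14 lower in NFRI 3236, 2 to 3 and 7 to 16 in NFRI 3155, and 1 to 2 and 13 to 17 in S288C. Heat responses differed for 0 to 0 genes between NFRI 3236 and S288C, 0 to 4 between NFRI 3155 and S288C and 0 to 0 between the NFRI strains. Levels differed for 2 to 8, 10 to 14 and 0 to 4 genes between these pairs at 39°C and for 0 to 7, 1 to 6 and 0 to 1 at 30°C.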
